A study of Mus musculus with 15 samples.

Results

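Whole lungs of adult male C57BL/6 mice taken 14 days after a dose of bleomycin were compared with whole lungs at day 0 by polyadenylated RNA sequencing. The comparison took in every gene of the count table and used 8 of the 15 libraries of the series, 4 of day 14 (day 14 replicates 1 to 4) and 4 of day 0 (day 0 replicates 1 to 4), chosen by the day in the sample titles. Bleomycin was given at 5 U/kg into the trachea of the day 14 mice, and the day 0 lungs were titled as controls. The labels name no transgene or deletion in either group, so the groups differed in the drug and in the time after it. The labels of day 0 replicate 4 disagreed, the title giving a control and the treatment field bleomycin. Its title decided, and the test of day 14 against day 0 was also run without it. The design text of the series counts 3 replicates a day where the titles list 4 for day 0 and for day 14, and which library would be the extra one is not given in the sources used here. The study calls its lung libraries biological replicates, but neither it nor the labels say that each came from a separate mouse, so the p-values measured the spread between these samples. The remaining 4 libraries of day 7 and 3 of day 21 entered the same fit and are used only where stated.

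Bleomycin breaks DNA and injures the alveolar epithelium and the capillaries next to it. In mice, inflammation dominates the first week, and fibroblasts then lay down and crosslink collagen, so that the weeks after that are used as a model of the fibrotic stage. Alveolar type 1 cells form the thin surface for gas exchange, alveolar type 2 cells make surfactant and serve as progenitors, and type 2 cells that repair injury pass through a keratin 8-high transitional state. Transforming growth factor beta (TGF-beta) drives the conversion of fibroblasts to matrix-secreting myofibroblasts, and bone morphogenetic protein (BMP) signalling opposes it in many settings.

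Total counts in the 8 libraries ran from 15652008 to 17710493. Levels are CPM (counts scaled to a fixed number of reads per library) on library sizes scaled by the trimmed mean of M values (TMM), where 4 values are given they follow replicates 1 to 4, and errors after ± are SDs with n = 4. CPM was not divided by gene length and compares libraries, not genes. A gene was called higher or lower at a Benjamini-Hochberg adjusted p under 0.05 by edgeR's quasi-likelihood test and a fold change over 1.5. "Rose" and "fell" are used for called genes, and fold changes are day 14 over day 0 on the log2 scale with their standard error (SE). The common biological coefficient of variation was 22.8%. The markers of lung were abundant at day 0, with Sftpc, surfactant protein C of alveolar type 2 cells, at 15734 to 25096 CPM and Scgb1a1, the secretoglobin of airway club cells, at 24634 to 31291 CPM.

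The libraries of a day were not alike in 2 respects. Mitochondrial genes took 2.28% and 2.31% of the counts in day 0 replicates 1 and 2 and 4.22% and 4.04% in replicates 3 and 4, and at day 14 they took 2.1% in replicate 1 and 3.74% to 4.14% in the others. Day 14 replicate 1 also had the highest level of the fibroblast matrix list and the lowest of the alveolar type 2 list among the 4 day 14 libraries. Given below are calls that were lost without 1 library and, where the call was kept, folds that then moved by over 1.5 times. The same is given within the 5 libraries over 3.5% mitochondrial (day 0 replicates 3 and 4 and day 14 replicates 2 to 4). The fitted folds of Wnt10a and Adipoq are left out, as their lower groups held 1 and 2 counts. With the share as a covariate 4187 genes were called at day 14 against day 0, beside 4040 without it. Of 39 counts of 1 to 3 genes in a list, 20 moved by over 1.5 times or to 0 in at least 1 of the 8 fits that left out 1 library, so such small counts are given as values only. Of 60 genes named as risen or fallen without values, 54 were called in all 8 of these fits. The others (Agr2, Ccl5, Ccl11, Cd8a, Siglecg and Tgfbr1) are given with the libraries concerned, and Chrdl1, Col4a6, Il5ra, Kdr, Smtn, Tbx3 and Timd4 were not called within the 5 libraries over 3.5% mitochondrial. Overlaps with other annotated genes covered 67.9% of the exon bases of Tagln, 26.4% of Ankrd37, 25.7% of Ackr1, 18.8% of Spp1 and 18% of Dbp, and Acot1, Ccl8, Cyp2f2, Hbb-bt, Ighm and Klra8 have close copies in the genome, so the counts of these genes are less certain.

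Of the 17457 genes tested, 12.0% were higher and 11.2% lower at day 14, and the median log2 fold change over all of them was 0.02. Against this background the cell division list (38 of 40 tested genes higher), the fibroblast matrix list (23 of 27), the Krt8-high transitional list (15 of 21) and the Spp1-high macrophage list (20 of 28) had the highest shares of risen genes. The highest shares of fallen genes among lists with at least 10 tested genes were in the NK and cytotoxic lymphocyte list (16 of 17), the multiciliated list (17 of 19), the alveolar fibroblast list (9 of 17), the circadian clock list (10 of 19) and the NRF2 and xenobiotic list (15 of 29). The lists were chosen with earlier results of these data known, so these shares describe the lists and are not a test of them. In whole lung, fewer cells of a type and less RNA per cell cannot be told apart.

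**Figure D1:**
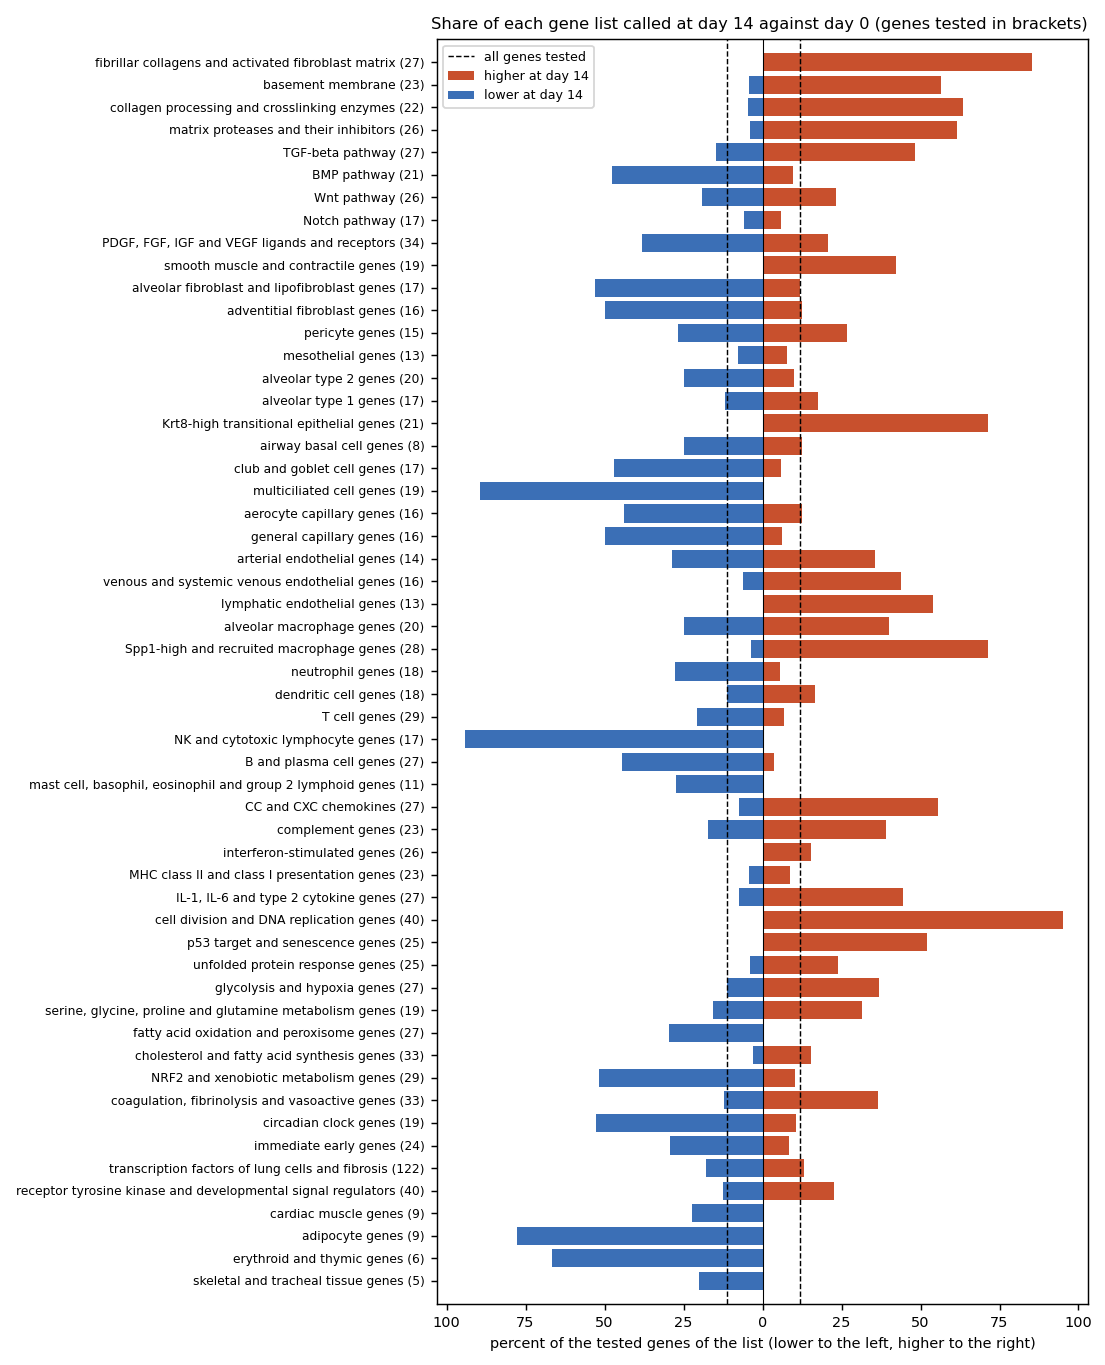
Each bar gives the percent of the tested genes of a list that were called higher (to the right) or lower (to the left) at day 14 against day 0, and the dashed lines mark the shares over all genes tested (12.0% higher, 11.2% lower). The matrix, cell division, transitional epithelial and Spp1-high macrophage lists reach far to the right, while the NK, multiciliated, fibroblast subtype and clock lists reach to the left.

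Interstitial matrix genes were raised in most of the list. Of 27 tested genes of fibrillar collagens and activated fibroblast matrix, 23 rose and 0 fell, with a median log2 fold change of 2.23, and for 21 of them every day 14 library lay above every day 0 library, against 16.8% of all genes tested. Col3a1, the type III fibrillar collagen, was at 421, 525, 316 and 405 CPM at day 0 and at 3093, 1389, 1553 and 1151 CPM at day 14. All 4 day 14 libraries lay above all day 0 libraries, and replicate 1 was the highest (log2 fold change 2.11, SE 0.28, adjusted p = 5.11e-05). Tnc, the adhesion-modulating glycoprotein tenascin C (mm10 chromosome 4, 63959785 to 64047015), was at 6.47, 12.2, 8.44 and 12.3 CPM at day 0 and at 784, 337, 215 and 179 CPM at day 14. The groups were far apart, and replicate 1 again held the top value (log2 fold change 5.26, SE 0.50, adjusted p = 3.96e-06, and 4.60 without that library and 4.54 within the 5 libraries over 3.5% mitochondrial). Col11a1, a minor fibrillar collagen typical of cartilage and scar, was at 0.0647, 0.242, 0.0635 and 0.446 CPM at day 0 and 48.6, 10.46, 2.98 and 1.81 CPM at day 14. The groups did not overlap, but most of the day 14 mean came from replicate 1. Its log2 fold change was 6.19, SE 1.12, adjusted p = 0.000702, and leaving out day 14 replicate 1 gave 4.52 and leaving out day 0 replicate 4 gave 6.89. It was 4.22 within the 5 libraries over 3.5% mitochondrial, 5.26 with limma voom and 5.41 with the replicate number as a block. Postn, periostin, rose less, from 189 ± 23.3 to 323 ± 145 CPM (log2 fold change 0.78, SE 0.25, adjusted p = 0.0243). That call rested on the library set: leaving out day 14 replicate 1 gave an adjusted p of 0.117, leaving out day 0 replicates 2 and 4 in turn gave 0.0652 and 0.0722, and it was 0.106 within the 5 libraries over 3.5% mitochondrial.

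Basement membrane genes moved less as a group, with 13 of 23 higher, 1 lower and a median of 0.66. Lama1, the laminin alpha 1 chain of embryonic basement membranes, had the largest rise of the list. It was at 2.85, 2.66, 1.08 and 2.01 CPM at day 0 and 22.1, 31.2, 41.5 and 48.6 CPM at day 14, and here replicate 1 was the lowest of the 4 day 14 libraries, unlike for the interstitial genes (log2 fold change 4.06, SE 0.37, adjusted p = 2.76e-06, and 4.68 within the 5 libraries over 3.5% mitochondrial). Col4a1, a chain of the network-forming type IV collagen, was at 938, 1008, 765 and 894 CPM at day 0 and 3319.5, 2262, 2353 and 2292 CPM at day 14. The groups were apart and replicate 1 stood above the other 3 (log2 fold change 1.504, SE 0.16, adjusted p = 6.9e-06). Col15a1, a basement membrane collagen of vessels, rose from 10.8 ± 4.28 to 67.2 ± 25.2 CPM (log2 fold change 2.64, SE 0.35, adjusted p = 5.68e-05). The fallen gene was Col4a6.

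Enzymes that modify and crosslink collagen rose as well, 14 of 22 higher and 1 lower, with a median of 0.97. Loxl2, a lysyl oxidase that crosslinks collagen IV and fibrillar collagen, was at 19.2, 24.2, 20.5 and 21.5 CPM at day 0 and 186, 98.2, 64.5 and 55.1 CPM at day 14. No library overlapped and the values at day 14 spanned a wide range (log2 fold change 2.24, SE 0.36, adjusted p = 0.000277). Lox, the founding member of that family, went from 171 ± 26.8 to 664 ± 386 CPM (log2 fold change 1.95, SE 0.33, adjusted p = 0.000366). P4ha3, a catalytic subunit of prolyl 4-hydroxylase, had the largest rise of the list, from 1.68 ± 0.663 to 24.8 ± 16.7 CPM (log2 fold change 3.87, SE 0.40, adjusted p = 6.9e-06), and its log2 fold change was 3.28 without day 14 replicate 1. The fallen member was Pcolce2, an enhancer of procollagen C-terminal cleavage that is made by adventitial fibroblasts. It was at 290.0, 287, 337 and 308 CPM at day 0 and 39.2, 38.7, 93.5 and 78.4 CPM at day 14. Every day 14 library was lower, and replicates 1 and 2 were the lowest (log2 fold change -2.29, SE 0.30, adjusted p = 5.68e-05).

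Proteases that cut matrix and the inhibitors that hold them back rose in the same list. Here 16 of 26 were higher, 1 was lower and the median was 1.36. Mmp12, the elastase of macrophages, was at 4.85, 4.11, 4.19 and 4.24 CPM at day 0 and 501, 144, 451 and 405 CPM at day 14. All day 14 libraries were far above day 0, replicate 2 being the lowest (log2 fold change 6.43, SE 0.56, adjusted p = 2.17e-06). Mmp14, a membrane-bound collagenase, went from 59.1 ± 16.2 to 379.8 ± 162 CPM (log2 fold change 2.69, SE 0.28, adjusted p = 6.89e-06), and Timp1, a secreted inhibitor of metalloproteinases, was at 7.44, 6.71, 4.57 and 6.36 CPM at day 0 and 261, 124, 75.7 and 55.8 CPM at day 14. Every day 14 library exceeded day 0, with replicate 1 on top (log2 fold change 4.36, SE 0.49, adjusted p = 1.31e-05, and 3.74 without replicate 1). The fallen member was Mmp9, a gelatinase stored by neutrophils, at 67.6, 93.2, 54.6 and 29.5 CPM at day 0 and 17.3, 30.2, 33.3 and 19.9 CPM at day 14. The groups overlapped (log2 fold change -1.28, SE 0.32, adjusted p = 0.00635), and within the 5 libraries over 3.5% mitochondrial its adjusted p was 0.187.

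**Figure D2:**
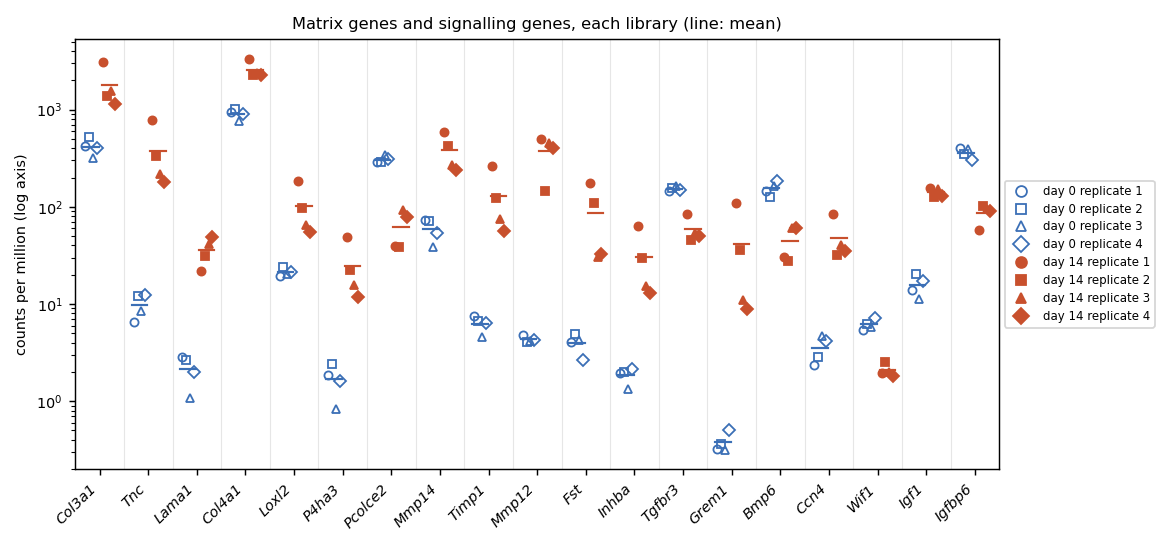
Each symbol is the level of a gene in 1 library in CPM on a log axis, open blue symbols for day 0 and filled orange symbols for day 14, with the replicate number given by the shape and the group mean by a line. Day 14 lies above day 0 for the matrix genes, Fst, Inhba, Grem1, Ccn4 and Igf1 and below it for Pcolce2, Tgfbr3, Bmp6, Wif1 and Igfbp6, and day 14 replicate 1 (filled circle) is the highest library for most interstitial matrix genes.

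Among genes of the TGF-beta pathway, 13 of 27 rose and 4 fell, with a median of 0.57 (0.338 without day 14 replicate 1). The ligand Tgfb1 itself was not called. It was at 109, 93.7, 106 and 99.4 CPM at day 0 and 157, 162, 124 and 106 CPM at day 14, and day 14 replicate 4 lay within the day 0 range (log2 fold change 0.43, SE 0.14, adjusted p = 0.0252, below the fold threshold). The risen ligands were Tgfb2, Tgfb3 and Inhba, the activin A subunit. Inhba was at 1.94, 1.995, 1.33 and 2.12 CPM at day 0 and 63.5, 29.5, 15.2 and 12.9 CPM at day 14. All 4 day 14 libraries were higher, and their values fell into a high pair (replicates 1 and 2) and a low pair (log2 fold change 4.03, SE 0.55, adjusted p = 6.74e-05, and 3.35 without replicate 1). Fst, follistatin, a secreted trap for activins, showed the same split, with 4.08, 4.96, 4.25 and 2.62 CPM at day 0 and 175, 109, 30.7 and 32.9 CPM at day 14. Replicates 1 and 2 were again the higher pair, and no day 14 library reached down to day 0 (log2 fold change 4.45, SE 0.57, adjusted p = 4.52e-05, and 3.83 without replicate 1). The integrin subunits Itgav and Itgb6, which free TGF-beta from its latent complex, rose.

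Receptors of this pathway did not move together. Tgfbr1 rose, but was not called without day 0 replicate 3 or day 14 replicate 1. Tgfbr2, the ligand-binding receptor, was at 367 ± 62.9 CPM at day 0 and 526 ± 139 CPM at day 14 and was not called (log2 fold change 0.52, SE 0.18, adjusted p = 0.0331), but was called without day 14 replicate 2 (log2 fold change 0.62, adjusted p 0.0134). Tgfbr3, the co-receptor betaglycan, was at 145, 154, 163 and 149 CPM at day 0 and 84.8, 45.9, 53.7 and 50.6 CPM at day 14. The day 0 values were tight and every day 14 value was lower (log2 fold change -1.38, SE 0.19, adjusted p = 6.74e-05). Bambi, a pseudoreceptor that dampens the pathway, fell from 31.9 ± 10.4 to 9.84 ± 0.95 CPM (log2 fold change -1.70, SE 0.21, adjusted p = 3.28e-05). Smad6, an intracellular inhibitor, and Ltbp4, a latent complex protein, were the other fallen members.

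BMP genes ran the opposite way in number, with 2 of 21 higher, 10 lower and a median of -0.40 (-0.232 without day 14 replicate 2). The number lower was 6 within the 5 libraries over 3.5% mitochondrial. Fallen members included the ligands Bmp2 and Bmp6 and the receptors Bmpr2 and Eng, the last being a co-receptor of endothelial cells. Bmp6 was at 146, 127, 164 and 183 CPM at day 0 and 30.2, 27.8, 60.6 and 60.1 CPM at day 14. The groups were apart, and replicates 1 and 2 of day 14 were the lowest (log2 fold change -1.79, SE 0.24, adjusted p = 5.7e-05). The secreted BMP antagonists split. Grem1, gremlin 1 (mm10 chromosome 2, 113746164 to 113758646), was at 0.324, 0.363, 0.317 and 0.502 CPM at day 0 and 109, 35.6, 11.1 and 8.87 CPM at day 14. It rose from near the detection limit in all 4 libraries, most in replicates 1 and 2 (log2 fold change 6.73, SE 1.07, adjusted p = 0.000249, and 5.55 without replicate 1, 5.45 within the 5 libraries over 3.5% mitochondrial and 5.94 with limma voom). Nog, noggin, rose from 0.779 ± 0.416 to 7.2 ± 5.37 CPM (log2 fold change 3.21, SE 0.52, adjusted p = 0.000289, and 2.52 without replicate 1). Chrdl1, a chordin-like antagonist, fell.

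For the Wnt pathway, 6 of 26 genes were higher and 5 lower (median -0.15). Ccn4, a matricellular protein and Wnt target, was at 2.33, 2.84, 4.63 and 4.18 CPM at day 0 and 85.3, 32.3, 40.05 and 34.8 CPM at day 14. Every day 14 library was higher, and replicate 1 stood above the rest (log2 fold change 3.78, SE 0.36, adjusted p = 4.3e-06, and 3.005 within the 5 libraries over 3.5% mitochondrial). Wnt10a, a ligand, had at most 1 count in any day 0 library and 3.96, 2.61, 2.17 and 1.63 CPM at day 14. Its 173 counts at day 14 against 1 at day 0 (in replicate 2) gave a ratio of 170.4 per scaled library size, with an exact 95% interval for counting error of 30.2 to 6770.4 (adjusted p = 1.7e-05). Wif1, a secreted Wnt inhibitor, was at 5.44, 6.17, 5.84 and 7.2 CPM at day 0 and 1.95, 2.55, 2.002 and 1.81 CPM at day 14. Its groups were apart in the other direction (log2 fold change -1.57, SE 0.21, adjusted p = 7.4e-05). Axin2, the feedback inhibitor often read as a sign of canonical signalling, was at 32.3 ± 0.523 and 28.5 ± 2.64 CPM and was not called (log2 fold change -0.18, SE 0.16, adjusted p = 0.4). In the Notch list 1 gene rose and 1 fell of 17. None rose without day 0 replicate 1 or 2 or day 14 replicate 1 or 2 or within the 5 libraries over 3.5% mitochondrial, and 2 fell without day 0 replicate 2 or 3 or day 14 replicate 4. The fallen gene was the target Hey1, at 97.1, 100.5, 87.5 and 100.4 CPM at day 0 and 46.0, 72.6, 45.1 and 46.1 CPM at day 14, with replicate 2 nearest to day 0 (log2 fold change -0.88, SE 0.16, adjusted p = 0.000606).

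Of the PDGF, FGF, IGF and VEGF ligands and receptors, 7 of 34 rose and 13 fell (median -0.30). Igf1, insulin-like growth factor 1, a product of macrophages and fibroblasts, was at 14.05, 20.1, 11.4 and 17.1 CPM at day 0 and 157, 125, 154 and 129.8 CPM at day 14. The day 14 libraries were close together and 9.03-fold above day 0 by the fitted fold (log2 fold change 3.17, SE 0.20, adjusted p = 2.61e-07). Pdgfc, a ligand of the PDGF alpha receptor, rose from 2.98 ± 0.603 to 13.5 ± 9.6 CPM (log2 fold change 2.18, SE 0.40, adjusted p = 0.000722, and 1.54 without day 14 replicate 1), while Pdgfra, that receptor, was at 358 ± 38.8 and 305 ± 99.4 CPM (log2 fold change -0.23, SE 0.23, adjusted p = 0.458). Igfbp6, an IGF-binding protein, was at 407, 346, 393 and 300.3 CPM at day 0 and 58.1, 102, 95.8 and 90.3 CPM at day 14. It was lower in every day 14 library, lowest in replicate 1 (log2 fold change -2.06, SE 0.19, adjusted p = 3.05e-06). Fgfr2, the receptor of FGF7 and FGF10 on epithelium, fell from 244 ± 20.3 to 84.4 ± 16.4 CPM (log2 fold change -1.53, SE 0.18, adjusted p = 1.73e-05), and the ligands Fgf7 and Fgf10 and the receptors Fgfr3 and Fgfr4 fell with it. Kdr, Tek and Angpt1, the receptors and a ligand that maintain vessels, also fell.

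Mesenchymal cell types differed in direction. The contractile list had 8 of 19 genes higher and 0 lower (median 0.67), with Tpm1, Tpm2, Cald1, Actn1 and Smtn among the risen. The median was 0.234 without day 14 replicate 1, with 6 higher, 0.32 within the 5 libraries over 3.5% mitochondrial and 0.41 over genes with a mean of at least 1 CPM. Acta2, smooth muscle alpha actin, the usual marker of myofibroblasts, was at 103, 129, 102 and 101 CPM at day 0 and 640.4, 398, 311 and 235 CPM at day 14. It had the largest rise of the list, with the groups apart and replicate 1 the highest (log2 fold change 1.87, SE 0.32, adjusted p = 0.000418). Actg2, smooth muscle gamma actin, was at 10.6, 17.6, 10.7 and 13.7 CPM at day 0 and 83.3, 29.9, 26.6 and 19.6 CPM at day 14. Replicate 1 was far above the other day 14 libraries (log2 fold change 1.60, SE 0.46, adjusted p = 0.0144), and without it the call was lost (log2 fold change 0.92, adjusted p 0.0809). Myh11, the myosin heavy chain of mature smooth muscle, was at 84.8 ± 21.5 and 74.3 ± 22.2 CPM (log2 fold change -0.19, SE 0.23, adjusted p = 0.551). Tagln, the actin-binding protein transgelin, was counted at 0.676 ± 0.324 and 1.24 ± 0.19 CPM and was not called (log2 fold change 0.85, SE 0.41, adjusted p = 0.123). Overlaps with other annotated genes covered 67.9% of its exon bases, so its low count does not show a low level of its RNA. The CArG box, the motif bound by serum response factor in contractile genes, was found on either strand in 3 of the 16 RefSeq promoters that matched 15 genes of the list (18.8%), against 1.63% of all promoters. The genes holding it were Cnn2, Myl9 and Vcl, of which Cnn2 and Vcl were not called. A match of letters is a description and not a site.

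Among genes of the resting fibroblast subtypes, more fell than rose. In the alveolar fibroblast list 9 of 17 were lower and 2 higher (median -0.84). Inmt, a methyltransferase of alveolar fibroblasts, was at 1903, 1318, 2419 and 2102 CPM at day 0 and 104, 163, 302 and 279.6 CPM at day 14. The loss was seen in every library and was deepest in replicate 1 (log2 fold change -3.19, SE 0.36, adjusted p = 1.33e-05). Tcf21, a transcription factor of lipofibroblasts, went from 63.8 ± 10.6 to 34.1 ± 8.72 CPM (log2 fold change -0.90, SE 0.25, adjusted p = 0.0116) and Npnt, nephronectin, from 789.7 ± 31.6 to 439.8 ± 69.5 CPM (log2 fold change -0.84, SE 0.20, adjusted p = 0.00497). Cdh11, a cadherin of activated fibroblasts, rose from 73.3 ± 5.31 to 159 ± 38.0 CPM (log2 fold change 1.12, SE 0.16, adjusted p = 8.64e-05). The adventitial list had 8 of 16 lower and 2 higher (median -0.66). Pi16, a marker of adventitial fibroblasts, was at 32.8, 45.2, 46.5 and 43.2 CPM at day 0 and 19.8, 12.8, 16.2 and 14.6 CPM at day 14, with the groups apart (log2 fold change -1.40, SE 0.27, adjusted p = 0.00116). Adh7, a retinol dehydrogenase, fell from 10.1 ± 3.24 to 1.65 ± 0.401 CPM (log2 fold change -2.60, SE 0.50, adjusted p = 0.00113), and Mfap5, a microfibril protein, rose from 43.6 ± 6.74 to 96.3 ± 17.1 CPM (log2 fold change 1.14, SE 0.17, adjusted p = 0.000191).

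Pericyte genes were balanced, with 4 of 15 higher and 4 lower, and the number higher was 2 without day 0 replicate 2, without day 14 replicate 1 and within the 5 libraries over 3.5% mitochondrial. Cspg4, the NG2 proteoglycan of pericytes, rose from 15.99 ± 1.68 to 37.4 ± 19.2 CPM (log2 fold change 1.23, SE 0.30, adjusted p = 0.00543) and Pdzd2 fell from 463 ± 45.9 to 169 ± 66.1 CPM (log2 fold change -1.45, SE 0.28, adjusted p = 0.00115). Of the mesothelial genes 1 of 13 rose and 1 fell, and within the 5 libraries over 3.5% mitochondrial 5 rose. The risen gene was Msln, mesothelin, at 114, 101, 77.8 and 68.7 CPM at day 0 and 315, 789, 390.5 and 261 CPM at day 14. All day 14 libraries were higher and replicate 2 stood out (log2 fold change 2.28, SE 0.41, adjusted p = 0.000635).

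In the epithelium, the alveolar type 2 list had 5 of 20 genes lower and 2 higher (median -0.28, and from -0.467 to -0.034 under the alternative fits). The number lower was 3 within the 5 libraries over 3.5% mitochondrial, without day 0 replicate 3 and without day 14 replicate 1. Sftpa1, surfactant protein A, was at 4081, 3873, 4363 and 4167 CPM at day 0 and 598, 1879, 1361 and 1766 CPM at day 14. Day 14 replicate 1 was the lowest, and all 4 were below day 0 (log2 fold change -1.56, SE 0.28, adjusted p = 0.000757). Sftpc was at 18868, 17856, 25096 and 15734 CPM at day 0 and 3742, 11818, 10534 and 13027 CPM at day 14. The groups did not overlap, but the spread within them was wide (log2 fold change -0.99, SE 0.35, adjusted p = 0.0428), and leaving out single libraries ended the call in 6 of 8 cases, with adjusted p from 0.0533 (without day 14 replicate 2) to 0.0975 (without day 0 replicate 3). The other such fits were those without day 0 replicates 1 and 2 (0.0623 and 0.0583) and without day 14 replicates 1 and 3 (0.0717 and 0.0632), and the adjusted p was 0.0784 within the 5 libraries over 3.5% mitochondrial and 0.059 in the day 0 and day 14 libraries alone. Etv5, a transcription factor that maintains type 2 cells, fell from 231 ± 16.4 to 94.8 ± 36.4 CPM (log2 fold change -1.29, SE 0.26, adjusted p = 0.00144). Ctsh, the cathepsin that processes surfactant protein B, rose from 453 ± 63.5 to 1251 ± 523 CPM (log2 fold change 1.47, SE 0.26, adjusted p = 0.00066).

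Alveolar type 1 genes had 3 of 17 higher and 2 lower (17.6% and 11.8%), near the 12.0% and 11.2% of all genes. Ager, the receptor RAGE and a marker of these cells, was at 2991, 2125, 2090.2 and 1995 CPM at day 0 and 2047, 3533, 2347 and 2792 CPM at day 14. The groups overlapped (log2 fold change 0.22, SE 0.24, adjusted p = 0.517). Pdpn, podoplanin, which lymphatic vessels also express, rose from 131 ± 20.6 to 292 ± 32.6 CPM (log2 fold change 1.16, SE 0.18, adjusted p = 0.000183), and Igfbp2 rose from 183 ± 81.4 to 523 ± 189 CPM (log2 fold change 1.51, SE 0.41, adjusted p = 0.0113). Within the 5 libraries over 3.5% mitochondrial 6 genes of the list were higher.

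The transitional state was the epithelial list that rose most broadly, 15 of 21 higher and 0 lower, with a median of 1.27. Cldn4, a claudin of injured alveolar epithelium, was at 5.95, 5.8, 5.33 and 3.96 CPM at day 0 and 149, 118, 36.8 and 57.7 CPM at day 14. All 4 libraries rose, replicates 1 and 2 the most (log2 fold change 4.11, SE 0.42, adjusted p = 6.42e-06). Sprr1a, a cornified envelope precursor, was at 1.23, 0.847, 0.508 and 0.279 CPM at day 0 and 10.6, 9.25, 9.9 and 11.3 CPM at day 14, with the day 14 libraries close together (log2 fold change 3.85, SE 0.37, adjusted p = 4.05e-06, and 4.67 within the 5 libraries over 3.5% mitochondrial). Against day 7, where its mean was 32.3 ± 13.7 CPM, Sprr1a was lower at day 14 (log2 fold change -1.65, adjusted p = 0.00725, or 0.154 with a covariate for the mitochondrial share). Krt8 itself, which club and ciliated cells also make, was at 245, 256, 183 and 191 CPM at day 0 and 491, 447, 241 and 336 CPM at day 14. Replicate 3 lay within the day 0 range (log2 fold change 0.79, SE 0.20, adjusted p = 0.00809). Within the 5 libraries over 3.5% mitochondrial the log2 fold change was 0.86 and the adjusted p 0.0514. Lgals3, Krt7, Krt18, Cdkn1a, Hbegf and Itgb6 were also among the risen, some of which are made by macrophages or other epithelium too.

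Of the airway lists, that of multiciliated cells fell most broadly. It had 17 of 19 lower and 0 higher (median -1.32). Tppp3, a microtubule-bundling protein of ciliated cells, was at 385, 386, 312 and 258 CPM at day 0 and 88.6, 70.2, 59.8 and 100.3 CPM at day 14. Every day 14 library was lower (log2 fold change -2.07, SE 0.28, adjusted p = 5.87e-05). Dnah5, an outer arm dynein, fell from 48.3 ± 20.1 to 15.2 ± 9.95 CPM (log2 fold change -1.67, SE 0.45, adjusted p = 0.0109). Foxj1, the factor that switches on motile cilia, was at 90.0, 104, 74.5 and 106 CPM at day 0 and 82.1, 36.0, 30.4 and 52.3 CPM at day 14. Day 14 replicate 1 lay within the day 0 range (log2 fold change -0.90, SE 0.30, adjusted p = 0.0322), and the call was lost without day 0 replicate 2 or 4 (adjusted p 0.063 and 0.0691) and without day 14 replicate 2, 3 or 4 (0.0878, 0.0848 and 0.0531).

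In the club and goblet list, 8 of 17 were lower and 1 was higher (median -1.72), the last being Agr2, a protein disulfide isomerase of mucous cells. The call of Agr2 was lost within the 5 libraries over 3.5% mitochondrial and in each fit that left out 1 library, other than the fit without day 14 replicate 3. Scgb1a1 was at 24634, 29634, 31291 and 25996 CPM at day 0 and 5107, 6800.3, 2686 and 5537 CPM at day 14. All 4 day 14 libraries were well below day 0 (log2 fold change -2.47, SE 0.34, adjusted p = 8.38e-05). Cbr2, a carbonyl reductase of club cells, was 10.2-fold lower by the fitted fold, at 4526 ± 971 and 445 ± 121 CPM (log2 fold change -3.35, SE 0.32, adjusted p = 3.72e-06). Of 12 airway basal cell genes written, 8 could be tested, of which 1 was higher and 2 were lower. Krt5, the keratin that defines basal cells, had no count in any day 0 library and 1 count in 1 day 14 library. Whether keratin 5-positive pods were present was not tested.

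**Figure D3:**
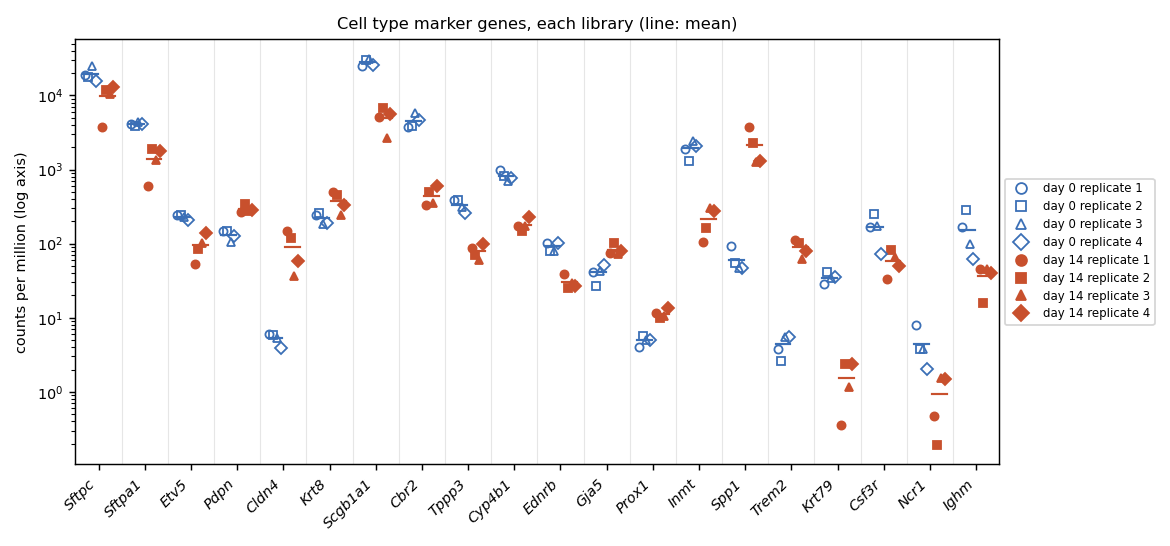
Levels of cell type marker genes in each library in CPM on a log axis, open blue symbols for day 0 and filled orange symbols for day 14, with the shape giving the replicate number and a line the group mean. Cldn4, Pdpn, Spp1 and Trem2 lie above day 0 in every day 14 library, while Scgb1a1, Cbr2, Tppp3, Cyp4b1, Inmt and Krt79 lie below it, and Csf3r overlaps.

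Endothelial lists differed in direction. Among aerocyte genes, which mark the large capillary cells of gas exchange, 7 of 16 were lower and 2 higher (median -0.46), with 5 lower and 1 higher within the 5 libraries over 3.5% mitochondrial. Ednrb, the endothelin B receptor, was at 103, 80.7, 80.8 and 103 CPM at day 0 and 39.3, 25.4, 29.1 and 26.5 CPM at day 14. All day 14 libraries were lower and close together (log2 fold change -1.61, SE 0.17, adjusted p = 6.9e-06). Car4, a carbonic anhydrase that alveolar macrophages also express, fell from 149.8 ± 26.2 to 79.0 ± 23.7 CPM (log2 fold change -0.92, SE 0.23, adjusted p = 0.00704), and Cyp4b1, a cytochrome P450 of these cells and of airway epithelium, fell from 815 ± 124 to 181 ± 33.4 CPM (log2 fold change -2.17, SE 0.21, adjusted p = 4.57e-06). Of the general capillary genes 8 of 16 were lower and 1 was higher (median -0.72), with 5 lower within the 5 libraries over 3.5% mitochondrial. Hilpda, a lipid droplet protein, was at 74.7, 66.7, 76.8 and 80.8 CPM at day 0 and 23.9, 40.1, 22.0 and 20.5 CPM at day 14, where replicate 2 was nearest to day 0 (log2 fold change -1.49, SE 0.19, adjusted p = 4.82e-05). Gpihbp1, which carries lipoprotein lipase on capillaries, was at 122 to 211 CPM at day 0 and 95.8 to 207 CPM at day 14, and these overlapping groups were not called (log2 fold change -0.24, SE 0.26, adjusted p = 0.5).

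The arterial list had 5 of 14 genes higher and 4 lower. Gja5, connexin 40, was at 41.6, 27.1, 43.1 and 51.5 CPM at day 0 and 74.6, 102, 71.6 and 80.7 CPM at day 14. All 4 day 14 libraries exceeded all of day 0 (log2 fold change 1.01, SE 0.17, adjusted p = 0.000337). Mgp, an inhibitor of calcification that fibroblasts and smooth muscle make too, rose from 745 ± 152 to 1802 ± 541 CPM (log2 fold change 1.27, SE 0.20, adjusted p = 0.000238), and Bmx, a tyrosine kinase of arterial endothelium, fell from 17.0 ± 3.47 to 7.76 ± 2.08 CPM (log2 fold change -1.14, SE 0.25, adjusted p = 0.00316). In the venous list 7 of 16 rose and 1 fell. Ackr1, the chemokine-binding protein of venules, was at 0.647, 0.423, 0.19 and 0 CPM at day 0 and 3.78, 1.66, 2.06 and 1.57 CPM at day 14. It was higher in all 4 libraries, though on few reads (log2 fold change 2.85, SE 0.60, adjusted p = 0.00213, and 4.17 within the 5 libraries over 3.5% mitochondrial). Vwf, von Willebrand factor, was at 657 ± 152 and 759.7 ± 81.4 CPM and was not called (log2 fold change 0.21, SE 0.17, adjusted p = 0.373). Among lymphatic genes 7 of 13 were higher and 0 lower. Prox1, the factor that specifies lymphatic endothelium, was at 4.08, 5.68, 4.95 and 5.02 CPM at day 0 and 11.4, 9.95, 10.7 and 13.5 CPM at day 14, with the groups apart (log2 fold change 1.204, SE 0.17, adjusted p = 8.18e-05). Ptx3, a long pentraxin also made by other stromal cells, rose from 0.991 ± 0.177 to 10.4 ± 2.28 CPM (log2 fold change 3.38, SE 0.35, adjusted p = 6.87e-06). Lyve1, a hyaluronan receptor of lymphatics that blood capillaries and some macrophages share, was at 628 ± 141 and 511 ± 193 CPM (log2 fold change -0.30, SE 0.33, adjusted p = 0.514).

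Most macrophage genes of the recruited, Spp1-high kind rose. Of 28 tested, 20 were higher and 1 was lower, with a median of 1.99. Spp1, osteopontin (mm10 chromosome 5, 104435118 to 104441050), was at 92.6, 55.1, 47.3 and 47.4 CPM at day 0 and 3778, 2260.1, 1275 and 1284 CPM at day 14. Every day 14 library was far above day 0, replicates 1 and 2 the most (log2 fold change 5.15, SE 0.46, adjusted p = 2.33e-06). Trem2, a lipid-sensing receptor, was at 3.75, 2.6, 5.52 and 5.52 CPM at day 0 and 114, 103, 62.1 and 78.6 CPM at day 14, with all 4 higher (log2 fold change 4.36, SE 0.30, adjusted p = 3.61e-07). The fallen gene was Timd4, a receptor of resident macrophages. The complement C1q genes, Gpnmb, Apoe, Ctsb and Ctsk were among the risen.

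Genes of resident alveolar macrophages split, 8 of 20 higher and 5 lower. Krt79, a keratin expressed by these macrophages in mice, was at 28.9, 41.3, 34.1 and 35.1 CPM at day 0 and 0.354, 2.36, 1.14 and 2.35 CPM at day 14. It was nearly lost in all 4 libraries (log2 fold change -4.49, SE 0.46, adjusted p = 6.36e-06). Fabp1, a fatty acid-binding protein, was at 10.3, 7.26, 6.48 and 7.64 CPM at day 0 and 0, 0.446, 0.172 and 0.181 CPM at day 14, with at most 7 counts in a day 14 library (log2 fold change -5.28, SE 0.80, adjusted p = 0.000169, and -6.00 without day 14 replicate 2). Siglecf, the surface marker of alveolar macrophages and eosinophils, was at 16.2 ± 1.74 and 12.0 ± 4.05 CPM and was not called (log2 fold change -0.43, SE 0.28, adjusted p = 0.267). Ctsd, a lysosomal protease, rose from 231 ± 8.93 to 897 ± 172 CPM (log2 fold change 1.96, SE 0.17, adjusted p = 1.82e-06). Marco, a scavenger receptor, was at 19.0, 26.9, 24.3 and 29.7 CPM at day 0 and 49.0, 434, 37.9 and 21.1 CPM at day 14. Its call came from replicate 2 (log2 fold change 2.44, SE 0.77, adjusted p = 0.0236), and without that library the log2 fold change was 0.51 and the adjusted p 0.429. The call was also lost without day 0 replicate 1, 2 or 3 (adjusted p 0.0633, 0.0523 and 0.0541) and within the 5 libraries over 3.5% mitochondrial (0.167), with limma voom (0.159) and with the replicate block (0.0943).

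Cytotoxic lymphocyte genes fell in the fit of all libraries. In the NK list 16 of 17 were lower, 0 higher and the median was -1.90, and within the 5 libraries over 3.5% mitochondrial 5 were lower with a median of -1.257. Gzma, granzyme A, was at 39.7, 17.5, 31.9 and 14.5 CPM at day 0 and 1.48, 2.55, 8.41 and 10.7 CPM at day 14. The groups were apart, but day 0 replicates 2 and 4 were near day 14 replicates 3 and 4 (log2 fold change -2.15, SE 0.52, adjusted p = 0.00492). Ncr1, the NK receptor NKp46, was at 7.9, 3.81, 3.75 and 2.01 CPM at day 0 and 0.473, 0.191, 1.54 and 1.51 CPM at day 14, low throughout (log2 fold change -2.21, SE 0.59, adjusted p = 0.00926). Klra8, an NK receptor of a family of close copies whose reads may be split, fell from 4.94 ± 2.22 to 1.01 ± 0.743 CPM (log2 fold change -2.28, SE 0.54, adjusted p = 0.0045). Within the 5 libraries the adjusted p was 0.0564 for Gzma and 0.178 for Ncr1.

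In the T cell list 6 of 29 were lower and 2 higher. The number higher was 5 with DESeq2 or a covariate for the mitochondrial share, 4 in the day 0 and day 14 libraries alone, and 1 without day 0 replicate 1 or 3 or day 14 replicate 1. The number lower was 3 without day 0 replicate 1 or 3 or day 14 replicate 1, 2 without day 14 replicate 2 and 3 within the 5 libraries over 3.5% mitochondrial. Cd3e, a chain of the T cell receptor complex, was at 5.57, 4.05, 5.97 and 3.79 CPM at day 0 and 1.77, 2.23, 4.005 and 2.66 CPM at day 14. The groups overlapped and the gene missed the threshold (log2 fold change -0.86, SE 0.32, adjusted p = 0.0514), and it passed without day 0 replicate 4 or day 14 replicate 3 (adjusted p 0.0475 and 0.0195). It also passed in 7 other alternatives, with adjusted p from 0.0118 (replicate block) to 0.0489 (no filter on low counts), among them DESeq2 (0.0269) and the day 0 and day 14 libraries alone (0.0423). Tnfrsf4, the costimulatory receptor OX40 of activated and regulatory T cells, rose from 1.26 ± 0.687 to 4.48 ± 0.688 CPM (log2 fold change 1.82, SE 0.38, adjusted p = 0.0021). Cd8a, the CD8 alpha chain, fell, and was not called without day 0 replicate 3 or within the 5 libraries over 3.5% mitochondrial. Among B and plasma cell genes 12 of 27 were lower and 1 was higher, with 3 lower and 5 higher within the 5 libraries over 3.5% mitochondrial. Ighm, the immunoglobulin M heavy chain, was at 168, 283, 99.1 and 62.7 CPM at day 0 and 45.4, 15.8, 45.1 and 39.7 CPM at day 14, and day 0 varied more than day 14 (log2 fold change -2.07, SE 0.58, adjusted p = 0.0124, and adjusted p 0.0512 within those 5 libraries).

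Myeloid genes outside the macrophage lists were mixed. Neutrophil genes had 5 of 18 lower and 1 higher, with 9 lower without day 14 replicate 3 and 1 lower within the 5 libraries over 3.5% mitochondrial. Csf3r, the receptor of the granulocyte growth factor, was at 169, 254, 172 and 72.9 CPM at day 0 and 33.4, 82.9, 65.5 and 49.4 CPM at day 14. Day 0 replicate 4 lay within the day 14 range (log2 fold change -1.53, SE 0.34, adjusted p = 0.00302). Cxcr2, the receptor for neutrophil-drawing chemokines, fell from 64.0 ± 39.9 to 19.8 ± 7.87 CPM with overlapping groups (log2 fold change -1.69, SE 0.45, adjusted p = 0.00889). Within the 5 libraries the adjusted p was 0.106 for Csf3r and 0.206 for Cxcr2. Lcn2, lipocalin 2, which injured epithelium also secretes, was at 118, 139, 119.7 and 104 CPM at day 0 and 269, 562, 620.2 and 696 CPM at day 14, higher in all libraries (log2 fold change 2.16, SE 0.27, adjusted p = 3.24e-05). Of the dendritic cell genes 3 of 18 rose and 2 fell (16.7% and 11.1%), near the 12.0% and 11.2% of all genes. Fscn1, an actin bundler of migratory dendritic cells, rose from 15.9 ± 2.2 to 86.3 ± 16.8 CPM (log2 fold change 2.44, SE 0.24, adjusted p = 4.39e-06), and Clec9a, a receptor of cross-presenting dendritic cells, fell from 49.0 ± 16.4 to 20.5 ± 7.28 CPM (log2 fold change -1.26, SE 0.27, adjusted p = 0.00216). In the list of mast cells, basophils, eosinophils and group 2 lymphoid cells 3 of 11 tested genes fell (Il5ra, Hdc and Siglecg) and 0 rose. Siglecg was not called without day 0 replicate 3 or 4 or day 14 replicate 1 or 2, and within the 5 libraries over 3.5% mitochondrial 1 gene of the list fell.

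Soluble mediators of inflammation were raised in part. Chemokine genes had 15 of 27 higher and 2 lower (median 1.31). Ccl2, which draws monocytes, was at 0.453, 0.847, 0.381 and 0.781 CPM at day 0 and 18.7, 16.5, 8.98 and 6.52 CPM at day 14, higher in all 4 libraries (log2 fold change 4.33, SE 0.57, adjusted p = 5.68e-05). Ccl8, a related chemokine, rose from 1.35 ± 0.438 to 24.7 ± 20.4 CPM (log2 fold change 4.19, SE 0.51, adjusted p = 2.71e-05, and 3.43 without day 14 replicate 1). Ccl17, a ligand of CCR4 from dendritic cells and macrophages, was at 3.81 ± 1.13 CPM at day 0 and 10.3 ± 0.876 CPM at day 14 (log2 fold change 1.43, SE 0.18, adjusted p = 3.4e-05), and was lower than its day 7 mean of 22.6 ± 1.73 CPM (log2 fold change -1.14, adjusted p = 0.00391). The fallen chemokines were Ccl5, a product of cytotoxic lymphocytes, and Ccl11, eotaxin. Both calls were lost without day 0 replicate 1 or day 14 replicate 2 and within the 5 libraries over 3.5% mitochondrial, and that of Ccl11 also without day 0 replicate 2 or 3 or day 14 replicate 1 or 3.

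Of the cytokine genes of the IL-1, IL-6 and type 2 families 12 of 27 were higher and 2 lower (median 0.63). Lif, a cytokine of the IL-6 family, was at 3.43, 5.44, 3.43 and 5.24 CPM at day 0 and 51.5, 44.6, 53.9 and 46.8 CPM at day 14. The libraries of each day were close together and the groups far apart (log2 fold change 3.48, SE 0.30, adjusted p = 1.96e-06). Il6 rose from 0.51 ± 0.568 to 4.46 ± 2.26 CPM (log2 fold change 3.08, SE 0.64, adjusted p = 0.00198, and 4.203 without day 0 replicate 4, its highest day 0 library), while its receptor Il6ra fell from 121 ± 29.5 to 49.6 ± 12.0 CPM (log2 fold change -1.29, SE 0.19, adjusted p = 0.000131). Il1b, at 57.4, 63.1, 68.5 and 28.6 CPM at day 0 and 10.4, 24.6, 30.5 and 19.6 CPM at day 14, was lower with overlapping groups (log2 fold change -1.35, SE 0.31, adjusted p = 0.00373, and adjusted p 0.0819 within the 5 libraries over 3.5% mitochondrial).

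Complement genes had 9 of 23 higher and 4 lower. C1qb, a chain of the C1q starter protein made by macrophages, was at 30.4, 33.9, 26.7 and 29.8 CPM at day 0 and 476, 237, 169 and 213 CPM at day 14, apart in every library (log2 fold change 3.18, SE 0.29, adjusted p = 2.94e-06). C3ar1, the receptor for C3a on myeloid cells, rose from 5.72 ± 2.17 to 53.8 ± 37.7 CPM (log2 fold change 3.23, SE 0.40, adjusted p = 3.4e-05, and 2.60 without day 14 replicate 1). C7, a terminal component made by fibroblasts, fell from 366 ± 87.7 to 152 ± 73.5 CPM (log2 fold change -1.27, SE 0.34, adjusted p = 0.00936, and adjusted p 0.193 within the 5 libraries over 3.5% mitochondrial), and C6 and Cfd were among the other fallen members, of which Cfd is also in the adipocyte list, where 7 of 9 fell. Interferon-stimulated genes had 4 of 26 higher, 0 lower and a median of -0.04, a share of risen genes close to the 12.0% of all genes, and 2 were higher without day 0 replicate 2 or 4 or day 14 replicate 3 or 4. In the list of antigen presentation genes 2 of 23 rose and 1 fell. The largest rise there was in Ctss, the lysosomal protease of class II loading, at 222, 193, 210.3 and 175 CPM at day 0 and 1537, 1262, 949.9 and 1246 CPM at day 14, apart in every library (log2 fold change 2.64, SE 0.22, adjusted p = 1.82e-06).

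**Figure D4:**
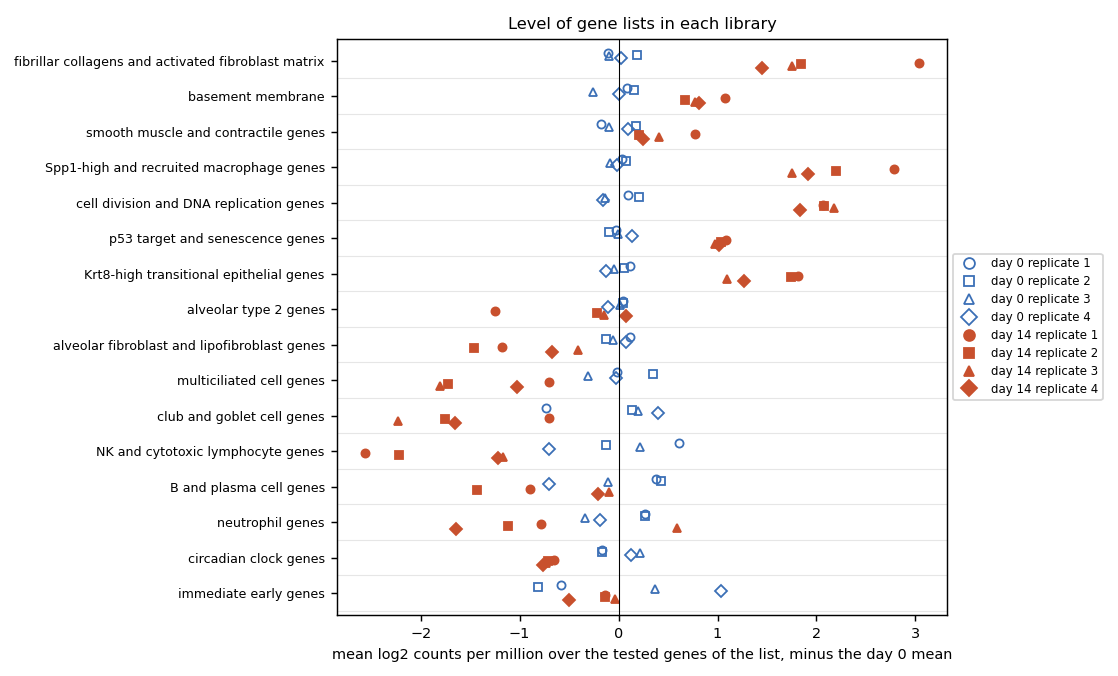
Each symbol is the mean log2 CPM over the tested genes of a list in 1 library, minus the mean of the 4 day 0 libraries, with open blue symbols for day 0 and filled orange symbols for day 14. The cell division, p53, matrix, Spp1-high macrophage and transitional epithelial lists are separate between the days, the neutrophil and immediate early lists overlap, and day 14 replicate 1 (filled circle) is the highest library for matrix and the lowest for alveolar type 2 genes.

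Cell division genes rose almost without exception. Of 40 genes of mitosis and DNA replication, 38 were higher and 0 lower with a median of 2.35, and every day 14 library was above every day 0 library for 39 of them. Cdk1, the kinase that drives entry into mitosis, was at 2.52, 3.14, 2.48 and 3.07 CPM at day 0 and 23.3, 28.4, 24.4 and 17.4 CPM at day 14 (log2 fold change 3.06, SE 0.27, adjusted p = 2.33e-06). Mki67, the proliferation marker Ki-67, was at 13.3, 21.2, 11.05 and 13.3 CPM at day 0 and 77.7, 70.4, 114 and 81.0 CPM at day 14 (log2 fold change 2.54, SE 0.27, adjusted p = 7.66e-06), and Ccnb1, cyclin B1, was at 2.98, 2.6, 1.21 and 1.004 and 19.2, 18.9, 16.8 and 15.3 CPM (log2 fold change 3.17, SE 0.35, adjusted p = 1.24e-05, and 3.93 within the 5 libraries over 3.5% mitochondrial). For these 3 genes all day 14 libraries were high and of like level.

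Genes of late cell cycle often carry the cell cycle homology region, whose core is TTTGAA, beside CCAAT boxes, and are held down by the DREAM complex in resting cells. Both motifs were searched on both strands in RefSeq promoters (250 bases before to 50 after the start, GRCm38.p6), where 33 of the 40 genes of the list had 34 promoters. TTTGAA was in 18 of them (52.9%), against 17.9% of all 32851 promoters, and CCAAT in 27 (79.4%), against 37.4%. A match describes the letters only. The promoters of Cdk1 and Mki67 are shown because both genes rose in every day 14 library and each window holds the core motif at 2 places, given in capitals. They are the 250 bases before the start, written 5′ to 3′ on the strand of the gene, which is the minus strand in both cases (Cdk1 at chr10:69352913-69353162, motif from -71 and -15, and Mki67 at chr7:135716380-135716629, motif from -116 and -98, counted from the start).
Cdk1: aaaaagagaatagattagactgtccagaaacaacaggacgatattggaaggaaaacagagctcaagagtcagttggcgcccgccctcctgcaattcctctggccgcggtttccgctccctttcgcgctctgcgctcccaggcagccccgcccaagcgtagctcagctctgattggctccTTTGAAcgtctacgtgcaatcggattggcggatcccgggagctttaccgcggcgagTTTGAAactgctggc
Mki67: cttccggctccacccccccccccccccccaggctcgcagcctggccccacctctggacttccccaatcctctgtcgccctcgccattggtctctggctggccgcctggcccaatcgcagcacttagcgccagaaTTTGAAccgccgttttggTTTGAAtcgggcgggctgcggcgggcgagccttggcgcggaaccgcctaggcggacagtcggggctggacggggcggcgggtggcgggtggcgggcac

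Targets of p53, the factor that answers DNA damage, and senescence genes had 13 of 25 higher and 0 lower (median 0.86). Cdkn1a, the cell cycle inhibitor p21, was at 129, 153, 71.7 and 112 CPM at day 0 and 371, 337, 289 and 343 CPM at day 14. All day 14 libraries were higher and alike (log2 fold change 1.52, SE 0.21, adjusted p = 6.71e-05). Gdf15, a stress cytokine, was at 1.81, 1.45, 1.59 and 1.45 CPM at day 0 and 10.7, 17.7, 21.1 and 17.7 CPM at day 14, also apart (log2 fold change 3.41, SE 0.23, adjusted p = 3.35e-07). Mdm2, the ubiquitin ligase that turns p53 over, was at 87.3 ± 8.59 and 125 ± 9.05 CPM. It lay higher in every day 14 library but under the fold threshold (log2 fold change 0.52, SE 0.10, adjusted p = 0.000935). Unfolded protein response genes had 6 of 25 higher and 1 lower. This count moved with the libraries, from 2 without day 0 replicate 4 or without day 14 replicate 2, and 3 without day 0 replicate 3, to 14 within the 5 libraries over 3.5% mitochondrial. The fallen gene, Herpud1 of the degradation branch, went from 264 ± 33.5 to 138 ± 28.4 CPM (log2 fold change -0.94, SE 0.17, adjusted p = 0.000702).

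Among metabolic lists, glycolysis and hypoxia genes had 10 of 27 higher and 3 lower (6 higher without day 14 replicate 1). Ankrd37, a target of hypoxia-inducible factors, rose from 1.76 ± 0.33 to 7.24 ± 1.61 CPM (log2 fold change 2.03, SE 0.35, adjusted p = 0.000455), and Epas1, the factor HIF-2 alpha that endothelium expresses strongly, was at 2897, 2922, 2398 and 3300.3 CPM at day 0 and 1190.2, 1332, 1710.4 and 1743 CPM at day 14, lower in every library (log2 fold change -0.95, SE 0.22, adjusted p = 0.00375). Serine, glycine, proline and glutamine genes, some of which supply amino acids of collagen, had 6 of 19 higher and 3 lower. Slc7a11, the cystine importer, was at 3.62, 4.11, 2.67 and 1.62 CPM at day 0 and 23.4, 35.9, 25.7 and 20.9 CPM at day 14, apart in every library (log2 fold change 3.14, SE 0.24, adjusted p = 9.05e-07). Psat1, an enzyme of serine synthesis, rose from 10.96 ± 2.12 to 39.8 ± 8.73 CPM (log2 fold change 1.86, SE 0.19, adjusted p = 6.41e-06), and Glul, glutamine synthetase, fell from 711 ± 99.3 to 355 ± 81.4 CPM (log2 fold change -1.003, SE 0.21, adjusted p = 0.00201). Pycr1 and Aldh18a1 of proline synthesis rose and Prodh, which breaks proline down, fell.

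Fatty acid oxidation and peroxisome genes had 0 of 27 higher and 8 lower (median -0.37, or -0.212 within the 5 libraries over 3.5% mitochondrial). Acaa1b, a peroxisomal thiolase, was at 13.8, 11.7, 17.6 and 18.6 CPM at day 0 and 0.591, 1.98, 1.77 and 2.17 CPM at day 14, lower throughout (log2 fold change -3.24, SE 0.35, adjusted p = 1.01e-05). Acot1, a thioesterase with close copies, was at 98.5, 87.3, 29.1 and 20.8 CPM at day 0 and 11.05, 11.9, 15.9 and 17.3 CPM at day 14, where day 0 replicates 3 and 4 were well below replicates 1 and 2 (log2 fold change -2.07, SE 0.40, adjusted p = 0.00121, and adjusted p 0.0504 within the 5 libraries over 3.5% mitochondrial). For cholesterol and fatty acid synthesis 5 of 33 rose and 1 fell (15.2% and 3.03%, beside 12.0% and 11.2% of all genes), with 3 higher without day 0 replicate 2. Cyp51, the sterol demethylase, rose from 38.1 ± 8.85 to 83.1 ± 10.2 CPM (log2 fold change 1.12, SE 0.17, adjusted p = 0.00018).

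Among detoxification genes more fell than rose, 15 of 29 of the NRF2 and xenobiotic list lower and 3 higher (median -0.85). Aox3, an aldehyde oxidase, was at 240.5, 259.9, 223 and 234 CPM at day 0 and 12.3, 25.001, 27.3 and 36.0 CPM at day 14. All day 14 libraries were far lower (log2 fold change -3.25, SE 0.26, adjusted p = 1.3e-06). Cyp2f2, the cytochrome P450 of club cells, was at 2067, 2238, 1792 and 1791 CPM at day 0 and 225, 211, 189 and 329 CPM at day 14, again lower throughout (log2 fold change -3.05, SE 0.32, adjusted p = 6.89e-06). It fell with the club markers Scgb1a1 and Cbr2, and Cyp4b1, also in this list, is an aerocyte and airway gene. The part of these cell types in the fall of the list was not tested. The risen members were antioxidant targets of NRF2, namely Slc7a11, Srxn1 and Hmox1, heme oxygenase 1, which was at 48.0, 49.0, 38.3 and 40.6 CPM at day 0 and 464, 1189.5, 259 and 120.3 CPM at day 14. Its day 14 values differed widely and replicate 2 was the highest (log2 fold change 3.53, SE 0.52, adjusted p = 0.000139, and 2.65 without replicate 2). Replicate 2 was also the highest day 14 library for Marco.

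Coagulation, fibrinolysis and vasoactive genes had 12 of 33 higher and 4 lower. Plau, the urokinase that activates plasminogen, was at 9.32, 6.05, 3.49 and 6.92 CPM at day 0 and 40.6, 27.8, 33.4 and 28.9 CPM at day 14, higher in all libraries (log2 fold change 2.34, SE 0.33, adjusted p = 9.31e-05). Its inhibitor Serpine2 rose as well. Npr3, the clearance receptor for natriuretic peptides, fell from 248 ± 107 to 81.7 ± 17.2 CPM (log2 fold change -1.60, SE 0.37, adjusted p = 0.00379, and -1.01 within the 5 libraries over 3.5% mitochondrial), and Thbd, thrombomodulin, the anticoagulant receptor of endothelium, and Agtr1a, the angiotensin receptor, also fell.

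Most clock genes that changed were lower. Of 19, 10 were lower and 2 higher (median -0.91). Nr1d1, the repressor REV-ERB alpha, was at 179.7, 223, 132 and 147 CPM at day 0 and 43.8, 27.0, 32.3 and 19.9 CPM at day 14. Every day 14 library was lower (log2 fold change -2.47, SE 0.31, adjusted p = 3.47e-05). Dbp, an output factor, was at 53.5, 41.3, 141 and 95.8 CPM at day 0 and 12.9, 12.4, 8.58 and 4.71 CPM at day 14. The groups were apart although day 0 replicates 3 and 4 were above replicates 1 and 2 (log2 fold change -3.10, SE 0.55, adjusted p = 0.000565, and -3.80 within the 5 libraries over 3.5% mitochondrial). Bhlhe40, a repressor that many stimuli induce, rose from 75.8 ± 12.1 to 147 ± 27.5 CPM (log2 fold change 0.96, SE 0.19, adjusted p = 0.00118). Per1, a period gene chosen after its values were seen because its promoter holds the E-box that the clock activators bind, was at 143, 131, 393 and 352 CPM at day 0 and 120.4, 99.6, 106 and 104 CPM at day 14. Day 0 fell into a low and a high pair of libraries, the same pairs that differed in mitochondrial share (log2 fold change -1.24, SE 0.33, adjusted p = 0.00983, and -1.86 within the 5 libraries over 3.5% mitochondrial). The time of day at which lungs were taken is not given in the sources used here, so circadian phase and treatment cannot be told apart for this list. The E-box CACGTG, which reads the same on both strands, was in 6 of 21 RefSeq promoters (28.6%) of 16 genes of the list, against 7.15% of all promoters. The genes holding it were Bhlhe41, Ciart, Cry1, Per1 and Tef, of which Bhlhe41, Ciart and Cry1 were not called. The Per1 promoter is shown for its copy, in capitals, at -166 (250 bases before the start, plus strand, GRCm38.p6, chr11:69098699-69098948).
Per1: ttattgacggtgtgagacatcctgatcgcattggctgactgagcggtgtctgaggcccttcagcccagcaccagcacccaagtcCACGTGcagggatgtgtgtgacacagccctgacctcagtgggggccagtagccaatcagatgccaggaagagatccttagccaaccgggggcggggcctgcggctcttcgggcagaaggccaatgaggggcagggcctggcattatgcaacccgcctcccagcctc

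Immediate early genes, which respond within minutes to stimuli and to handling of tissue, had 2 of 24 higher and 7 lower, and this count turned on day 0. The fit without day 0 replicate 4 called 2 lower and 6 higher. The number lower was 11 without day 0 replicate 2, 4 without day 0 replicate 3 or without day 14 replicate 3 or 4, and 12 within the 5 libraries over 3.5% mitochondrial. Nr4a1, an orphan nuclear receptor, was at 78.0, 27.6, 338 and 798 CPM at day 0 and 36.5, 67.7, 72.7 and 31.3 CPM at day 14. Day 0 replicates 3 and 4 were high and replicates 1 and 2 within or near the day 14 range (log2 fold change -2.58, SE 0.70, adjusted p = 0.0106). The call was lost without day 0 replicate 4 (log2 fold change -1.53, adjusted p 0.0611) and with limma voom (-1.665, adjusted p 0.0846). The log2 fold change was -3.32 within the 5 libraries over 3.5% mitochondrial. Fos was at 56.0, 38.9, 89.4 and 566 CPM at day 0 and 98.4, 85.9, 58.1 and 47.1 CPM at day 14, with day 0 replicate 4 far above the rest (log2 fold change -1.37, SE 0.62, adjusted p = 0.104). Its log2 fold change was 0.215 without day 0 replicate 4, and -1.74 with an adjusted p of 0.0346 without day 0 replicate 2. Within the 5 libraries over 3.5% mitochondrial it was -2.38, with an adjusted p of 0.0332, and without a filter on low counts the adjusted p was 0.0392. Myc rose in a pattern of its own, from 9.77, 11.01, 7.17 and 9.71 CPM at day 0 to 44.1, 30.7, 20.6 and 17.1 CPM at day 14, with no overlap (log2 fold change 1.58, SE 0.32, adjusted p = 0.00167).

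Of 122 tested transcription factors of lung cells and fibrosis, 16 were higher and 22 lower, shares of 13.1% and 18% beside 12.0% and 11.2% of all genes. Etv4, an ETS factor downstream of FGF signalling, was at 0.259, 0.181, 0.444 and 0.335 CPM at day 0 and 13.6, 12.1, 3.95 and 3.44 CPM at day 14. It rose from near the detection limit in every library, and more in replicates 1 and 2 (log2 fold change 4.73, SE 0.56, adjusted p = 1.96e-05, and 4.03 within the 5 libraries over 3.5% mitochondrial), while its relative Etv5 fell (above). Prrx2, a homeobox factor of mesenchyme, was at 0.388, 0.423, 0.127 and 0.948 CPM at day 0 and 7.39, 2.36, 2.69 and 1.87 CPM at day 14, with replicate 1 apart (log2 fold change 2.88, SE 0.55, adjusted p = 0.000994, 2.23 without replicate 1, and adjusted p 0.0644 within the 5 libraries over 3.5% mitochondrial). Runx2, a factor of osteoblasts and activated fibroblasts, rose from 9.49 ± 0.621 to 15.5 ± 3.98 CPM (log2 fold change 0.70, SE 0.20, adjusted p = 0.0154), and the call was lost without day 14 replicate 1 (adjusted p 0.0665) and within those 5 libraries (0.123). Runx1, its relative in blood cells and fibroblasts, was at 65.0 ± 10.53 and 95.2 ± 30.6 CPM and missed the fold threshold (log2 fold change 0.55, SE 0.18, adjusted p = 0.0316), which it passed without day 0 replicate 1 or 2 or day 14 replicate 2, 3 or 4 (log2 fold changes 0.59, 0.59, 0.62, 0.64 and 0.59) and with a covariate for the mitochondrial share (0.59). Klf15, a metabolic factor induced by glucocorticoids, was at 87.5, 75.8, 73.5 and 78.9 CPM at day 0 and 21.8, 14.2, 11.4 and 12.1 CPM at day 14, lower in every library (log2 fold change -2.40, SE 0.35, adjusted p = 0.000136).

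The risen factors also included Prrx1, Scx and Foxs1 of mesenchyme, Tfec of macrophages, and Foxm1 of dividing cells. Among the fallen were Foxf1 and Tbx3 of lung mesenchyme and endothelium, and Foxa1, Elf5, Ehf and Sox2 of epithelium. Of receptor tyrosine kinase and guidance genes 9 of 40 rose and 5 fell. The number lower was 3 without day 0 replicate 2 or day 14 replicate 1 or 2 and 8 without day 14 replicate 4, and 3 within the 5 libraries over 3.5% mitochondrial. Met, the hepatocyte growth factor receptor, was at 107, 121, 84.7 and 81.1 CPM at day 0 and 35.7, 37.2, 58.5 and 58.0 CPM at day 14, with the groups apart (log2 fold change -1.05, SE 0.20, adjusted p = 0.000906).

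**Figure D5:**
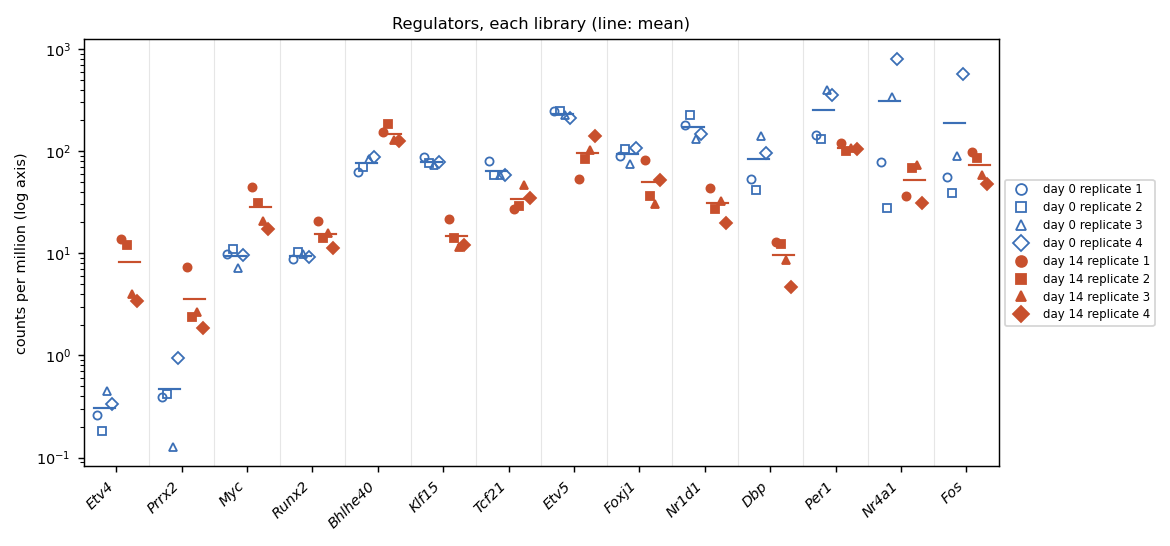
Levels of regulator genes in each library in CPM on a log axis, with open blue symbols for day 0, filled orange symbols for day 14, the shape giving the replicate number and a line the group mean. Etv4, Prrx2 and Myc lie above day 0 and Klf15, Nr1d1 and Dbp below it in every day 14 library, and Nr4a1 and Fos spread over more than a factor of 10 within day 0.

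Markers of tissues around the lung also differed, and their summed levels varied between the day 0 libraries. Adipocyte genes had 7 of 9 tested genes lower and 0 higher, or 3 lower in a fit of the day 0 and day 14 libraries alone, and their sum ran from 32.6 to 96.8 CPM at day 0 and from 19.1 to 27.9 CPM at day 14. Adipoq, adiponectin, was at 0.129, 1.21, 1.33 and 2.29 CPM at day 0 and 0, 0, 0.114 and 0 CPM at day 14, on 84 counts against 2, a ratio of day 0 to day 14 of 42.6 with an exact 95% interval for counting error of 11.4 to 358 (adjusted p = 0.00674). Cardiac muscle genes had 2 of 9 lower and 0 higher (0 lower without day 0 replicate 3 or 4 or day 14 replicate 1, 2 or 3, and 9 within the 5 libraries over 3.5% mitochondrial), with sums of 32.6 to 315 CPM at day 0 and 29.3 to 46.0 CPM at day 14. Myl7, an atrial myosin chain, was at 0.518, 1.39, 30.7 and 11.7 CPM at day 0 and 1.06, 3.7, 5.15 and 1.99 CPM at day 14, high in day 0 replicates 3 and 4 and overlapping (log2 fold change -1.89, SE 1.36, adjusted p = 0.307). It was called within the 5 libraries over 3.5% mitochondrial (log2 fold change -2.56, adjusted p 0.00828). Erythroid and thymic genes, whose sums were 1295 to 4349 CPM at day 0 and 645 to 1702 CPM at day 14, had 4 of 6 lower (all erythroid) and 0 higher, but 2 lower without day 0 replicate 1 or day 14 replicate 3 or 4 and 0 within the 5 libraries over 3.5% mitochondrial. Hbb-bt, a beta globin with a near-identical copy, was at 134 to 516 CPM at day 0 and 62.8 to 139 CPM at day 14 (log2 fold change -1.64, SE 0.39, adjusted p = 0.00456), and Alas2, the erythroid heme synthesis enzyme, was at 9.14 to 124 and 8.15 to 22.6 CPM (log2 fold change -2.02, SE 0.53, adjusted p = 0.00858). Within the 5 libraries over 3.5% mitochondrial neither was called (adjusted p 0.084 and 0.246), and Alas2 was not called with limma voom (0.0689). Of 5 tested skeletal and tracheal tissue genes 1 was lower and 0 higher, with sums of 5.57 to 12.95 CPM at day 0 and 4.53 to 7.09 CPM at day 14. The part of these tissues in the results above was not tested.

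Among all genes with at least 5 CPM in the higher group and no overlap between the days, the largest changes included genes outside the lists. Cemip, which breaks down hyaluronan, was at 0.194, 0.484, 0.571 and 0.279 CPM at day 0 and 78.8, 9.12, 27.3 and 11.05 CPM at day 14. It rose from near zero in all 4 libraries, most in replicate 1 (log2 fold change 6.35, SE 0.85, adjusted p = 5.87e-05, and 5.33 without replicate 1 and 5.203 within the 5 libraries over 3.5% mitochondrial). Hes2, a HES family repressor, was at 5.95, 6.29, 5.71 and 5.58 CPM at day 0 and 0.177, 0.0638, 0.172 and 0.121 CPM at day 14. Its values were tight within each day and it was at no more than 3 counts in any day 14 library (adjusted p = 6.85e-07). Cyp2e1, a cytochrome P450, was at 5.37, 15.1, 13.7 and 18.1 CPM at day 0 and 0.177, 0.128, 0.114 and 0.724 CPM at day 14, low in all 4 libraries (log2 fold change -5.48, SE 0.79, adjusted p = 0.000109, and -6.47 without day 14 replicate 4). Day 0 replicate 1 was its lowest day 0 library, as it was for the adipocyte marker Adipoq, and the part of adipocytes in this fall was not tested.

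To place the fibrotic stage in the time course, day 14 was tested against day 7, where 2.77% of all genes tested were higher and 3.23% lower. These shares amount to 1048 genes, and the number was 348 and 503 without day 14 replicates 2 and 3, 522, 464 and 340 without day 7 replicates 1, 3 and 4, and 218 with a covariate for the mitochondrial share. Mitochondrial genes took 2.03% to 2.15% of the counts in the 4 day 7 libraries, below the share in day 14 replicates 2 to 4. The lists with over 20% of their tested genes lower at day 14 than at day 7 were the multiciliated list (15 of 19), the adipocyte list (5 of 9), the adventitial fibroblast list (8 of 16), the NRF2 and xenobiotic list (11 of 29), the complement list (7 of 23), the club and goblet list (5 of 17) and the dendritic cell list (4 of 18). Those with over 20% higher were the lymphatic list (3 of 13), the fibroblast matrix list (6 of 27) and the Spp1-high macrophage list (6 of 28). In the fit with a covariate for mitochondrial share, the numbers lower were 0 for the multiciliated list, 2 each for the adipocyte, adventitial and complement lists, 5 for the NRF2 and xenobiotic list, 3 for the club and goblet list and 1 for the dendritic cell list. The numbers higher in that fit were 1 for the lymphatic list, 7 for the fibroblast matrix list and 5 for the Spp1-high macrophage list. Tppp3 was at 192 ± 38.9 CPM at day 7 (log2 fold change of day 14 over day 7 -1.27, adjusted p = 0.016), and Aox3 was at 75.9 ± 14.7 CPM (-1.59, adjusted p = 0.00447). Spp1 was at 534 ± 156 CPM at day 7 (2.01, adjusted p = 0.0126), Trem2 at 33.8 ± 9.19 CPM (1.40, adjusted p = 0.00814) and Grem1 at 3.46 ± 2.63 CPM (3.56, adjusted p = 0.0203). With the covariate Tppp3 was not called (adjusted p = 0.103), while Aox3 (0.0206), Spp1 (0.0207), Trem2 (0.0488) and Grem1 (0.0278) were. The cell division list had 1 gene higher and 0 lower than at day 7 and a median difference of 0.33, and Col3a1 was at 1957 ± 167 CPM at day 7 (-0.12, adjusted p = 0.808).

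Between day 14 and day 21 no gene passed in edgeR (0.00% higher and 0.00% lower), with 1714 genes at an unadjusted p under 0.05, 106 called by DESeq2 and 0 by limma voom. Without day 14 replicate 1, edgeR called 127. Means at day 21 (n = 3) of genes described above were 2848 ± 1379 CPM for Spp1, 378 ± 201 CPM for Tnc, 3089.6 ± 1753 CPM for Scgb1a1, 737 ± 243 CPM for Sftpa1 and 49.2 ± 22.9 CPM for Mki67. None of these differences from day 14 was called, which does not show that the days were alike.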

How the data were processed

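Polyadenylated RNA from whole mouse lung was sequenced by the authors in 15 libraries (4 of day 0, 4 of day 7, 4 of day 14 and 3 of day 21). According to the methods and the submitters' processing notes, reads were trimmed with TrimGalore, aligned to mm10 with HISAT2 2.1.0, multi-mapped reads were dropped and genes were counted with HTSeq 0.6.0, and the authors deposited the raw read counts per gene without normalization. The gene annotation used for counting and its strand setting are not given in the sources used here. Of the 33340 genes counted, 450 were at 0 in every library, and 33267 were matched by Ensembl identifier to GENCODE M21, the rest holding 0.00889% of the counts.

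Libraries were grouped by the day in their titles. Genes passing edgeR's filterByExpr on the day group (17457) were tested with edgeR 4.0.16 (R 4.3.3), TMM factors, glmQLFit and glmQLFTest, two-sided, in 1 fit of all 15 libraries with the day as the only term, and p-values were adjusted over all genes tested by Benjamini-Hochberg. Calls needed a fold change over 1.5 as well as an adjusted p under 0.05. SDs are of CPM. Intervals and floors cover counting error only, and the sequenced fragments carried no molecular identifiers, so counts are not independent molecules. Alternatives were DESeq2 1.42.0, limma 3.58.1 (voom), RLE factors, no factors, other filters, the day 0 and day 14 libraries alone, the replicate number as a block, the mitochondrial share as a covariate, the 5 libraries over 3.5% mitochondrial, and leaving out each library in turn.

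The genes given with values were the first 2 of each list, the 2 called genes that rose most and the 2 that fell most in each list among those with a mean of at least 1 CPM, and over all genes those with the largest changes that had at least 5 CPM in the higher group and no overlap, without predicted, immunoglobulin and T cell receptor genes. A choice of these is given, some genes are not reported here, and Per1 was added after its values were seen. The lists, and the set of libraries over 3.5% mitochondrial, were chosen with earlier results of these data known. Promoter sequences are from RefSeq on GRCm38.p6.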

Additional observations from a re-analysis of the deposited data

Results flagged for a closer look

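Among the genes described, 275 groups of 4 libraries were examined for a library far from the other 3, and 17 were found by Dixon's criterion, where chance gives about 1 in 20, or 13.8 of these groups. In 8 of them the library was day 14 replicate 1, which was the highest of its group. Its levels were 537 CPM for Postn (219.9 to 272 CPM in the others), 3319.5 CPM for Col4a1 (2262 to 2353), 105 CPM for Col15a1 (50.3 to 57.1), 15.2 CPM for Nog (3.68 to 5.42), 85.3 CPM for Ccn4 (32.3 to 40.05), 83.3 CPM for Actg2 (19.6 to 29.9), 7.39 CPM for Prrx2 (1.87 to 2.69) and 141 CPM for Runx1 (76.4 to 86.1).

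Day 14 replicate 2 stood above the other 3 for the scavenger receptor Marco, at 434 CPM against 21.1 to 49.0, for the Notch target Hey1, at 72.6 CPM against 45.1 to 46.1, and for the arterial kinase Bmx, at 10.8 CPM against 6.52 to 7.15. At day 0, replicate 1 stood above the others for Tcf21 at 79.7 CPM (57.8 to 58.9), Ager at 2991 CPM (1995 to 2125) and Ccl8 at 2.01 CPM (1.08 to 1.17). Replicate 2 did so for Acta2 at 129 CPM (100.7 to 102.8), replicate 3 for Tnfrsf4 at 2.29 CPM (0.841 to 1.03), and replicate 4, the library whose treatment label named bleomycin, for Fos at 566 CPM (38.9 to 89.4).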

How the results depend on the processing

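At day 14 against day 0, 4040 genes were called, and 2990 (the 5 libraries over 3.5% mitochondrial) to 4370 (DESeq2) under the alternatives, with 3406 to 4115 when 1 library was left out. Against day 7, 1048 genes were called, 1642 with DESeq2, 218 with a covariate for the mitochondrial share and 340 to 1300 when 1 library was left out. For day 21 against day 14 the number was 0, 106 with DESeq2, 37 without a filter and 0 to 127 when 1 library was left out, the highest without day 14 replicate 1 and 24 without day 21 replicate 3. Over the named genes and these alternatives, 2543 values kept their direction and their side of the threshold, 43 lost the call, 20 gained it and 1 changed sign. That was Fos, at a log2 fold change of 0.215 without day 0 replicate 4, while without day 0 replicate 2 it was -1.744 and passed the threshold. The cause of these shifts was not tested.

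Deviations of same-numbered day 0 and day 14 libraries from their group means correlated at 0.084, -0.205, 0.032 and 0.028, so the numbers were not taken to pair the samples. The fit with the replicate number as a block called 2056 genes higher and 2057 lower (4113 in all). With it the T cell list had 4 higher and 10 lower and the dendritic cell list 4 lower. Genes near 1 CPM rest on about 16 reads a library, which limits their precision.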
